A study of Mus musculus with 6 samples.

Results

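The transcripts described here come from the mouse genes of the major histocompatibility complex (MHC, named H2 in the mouse) and of the machinery that cuts, carries and loads the peptides that MHC molecules display. They were taken by name: every gene whose symbol begins with H2-, together with B2m, Cd74, Ciita, Nlrc5, Tap1, Tap2, Tapbp, Psmb8, Psmb9 and Psmb10. The deposited table of 53735 genes held 55 of them, 45 with an H2- symbol and 10 others, and 49 lay on chromosome 17. Averaged over the 6 libraries, 28 of the 55 reached 10 normalized counts, as did 15229 genes in all. Normalized counts are reads divided by a size factor for each library, so that libraries of different depth can be set side by side. The class I side held 40 of the 55 genes, of which 23 reached that mean, and the class II side held 12, of which 5 did. The other 3 (H2-Ke6, H2-Pa and H2-Pb) were assigned to neither class and had means under 10.

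The libraries were poly(A)-selected RNA of lung endothelial cells in primary culture, taken with beads against CD31 and ICAM2 and neither passaged nor treated. The libraries labelled KO1, KO2, KO3 and KO4 were given as Zmpste24 knockout, and the libraries labelled WT1 and WT2 as Zmpste24 wild type. Zmpste24 encodes the protease that trims prelamin A. The labels name 2 cohorts of mice without assigning any library to a cohort, give no age, sex or strain, and are silent on whether each library had its own animal. The p-values therefore describe how far these libraries scatter, which may be technical.

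Class I molecules are made of a heavy chain and beta-2 microglobulin (B2m), and nearly all nucleated cells carry them. Peptides cut by the proteasome are pumped into the endoplasmic reticulum by the transporter Tap1/Tap2 and loaded with the help of tapasin (Tapbp), and Nlrc5 switches on the promoters of these genes. Class II molecules take up peptides in endosomes with the help of the invariant chain (Cd74) and the DM proteins under the control of Ciita, and endothelial cells are known to gain class II when interferon-gamma is present.

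Depth ranged from 32699024 to 45613685 reads per library, so that 3 reads, the limit that a count of 0 allows, were worth 2.57 to 3.46 normalized counts. Zmpste24 had 5079, 3764, 3599 and 3720 normalized counts in KO1 to KO4, against 5503 and 4148 in WT1 and WT2. Which part of the gene was deleted is not given in the labels, and a whole-gene count then tells nothing of the genotype. Every direction given here is that of the libraries labelled knockout. The libraries fell into 2 sets on the genes outside these families, with KO1 and WT1 in the first set and KO2, KO3, KO4 and WT2 in the second. Correlations of log2 values were 0.978 to 0.991 within a set and 0.908 to 0.935 between sets over 15201 genes. The sets came from the data, and whether they are the cohorts named in the labels was not tested.

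The sets also differed in the markers of other cells. The summed level of 15 macrophage markers was 4381 normalized counts in KO1, 37796 in KO2, 51833 in KO3 and 31607 in KO4, against 5531 in WT1 and 36793 in WT2. Lyz2, the macrophage lysozyme, had 718, 20138, 27455 and 18131 in KO1 to KO4, against 856 and 18509 in WT1 and WT2. Lyz2 was the largest part of that sum in KO2 to KO4 and WT2. Of the 14 macrophage markers that reached a mean of 10, 12 were higher on average in the second set, and Cd14 and Itgax were lower. Cd14 had 2820, 2112, 2592 and 1498 in KO1 to KO4, against 3559 and 4672 in WT1 and WT2. The summed level of 12 endothelial markers was 120658, 71094, 60712 and 43601 in KO1 to KO4, against 200282 and 69467 in WT1 and WT2, and all 12 were lower on average in the second set. B cell and T cell markers summed to at most 9.24 and 5.14 normalized counts in any library, and Cd3e, Cd8a and the dendritic cell gene Xcr1 were at 0 in all 6. Other lists differed by set as well. Of the alveolar type 2 markers 3 of 4 tested were higher in the second set and 1 was lower, of the fibroblast markers 3 were higher and 2 lower, of the dendritic cell markers 1 was higher and 1 lower, and all 4 mesothelial markers were lower. Sftpb, a surfactant protein gene of alveolar type 2 cells, had 0, 187, 280 and 87.8 normalized counts in KO1 to KO4, against 1.05 and 145 in WT1 and WT2. Batf3, a dendritic cell factor, had 11.3, 234, 202 and 67.6 in KO1 to KO4, against 14.7 and 84.1 in WT1 and WT2. Pdgfra, a fibroblast receptor, had 3946, 69228, 58581 and 34290 in KO1 to KO4, against 5842 and 39694 in WT1 and WT2. The summed mesothelial markers were 60852, 12005, 8440 and 16171 in KO1 to KO4, against 26117 and 16591 in WT1 and WT2. In bulk RNA, fewer cells of a type and less RNA per cell cannot be told apart, and the part that other cells play in the levels below was not tested.

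B2m stood far above every other gene of the set, and the classical class I heavy chains H2-D1 and H2-K1 came next. Per kilobase of exon, the mean level over the 6 libraries was 18863 normalized counts for B2m, 3023 for H2-D1 and 2121 for H2-K1. The lowest library of B2m, at 13602 per kilobase, was above the highest library of H2-D1, at 3444. H2-D1 and H2-K1 did not separate from each other in this way, because the highest library of H2-K1 reached 2494 per kilobase and the lowest of H2-D1 was at 2331. Tapbp followed with a mean of 768 per kilobase, and then H2-M9 with 478, H2-T22 with 448, Tap2 with 403, H2-T23 with 367, Psmb10 with 302, H2-M3 with 270 and H2-Q4 with 238. The 5 class II genes ran from the middle of the order to near its end. H2-DMb1 was at 143 per kilobase, next to Tap1 at 147, H2-Ab1 at 88.1, H2-DMa at 48.9, H2-Eb1 at 12.3 and Cd74 at 8.39. Of the 27 pairs of neighbours in this order, 25 overlapped in their library ranges, and B2m over H2-D1 and H2-K1 over Tapbp were the 2 pairs that did not. H2-M9 reached 2001 per kilobase in its highest library.

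**Figure D1:**
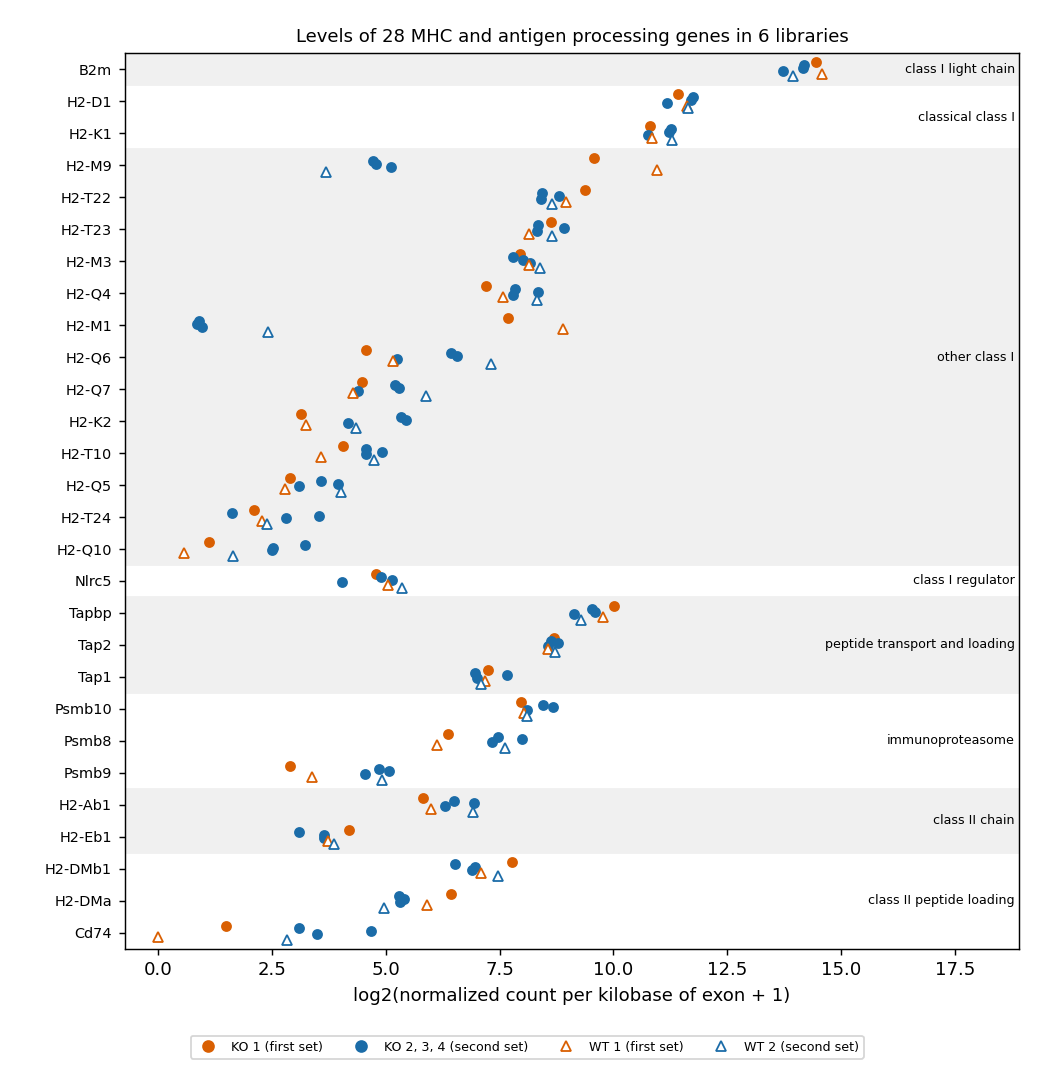
Level of each of the 28 genes in each library, as log2 of normalized count per kilobase of exon plus 1 on the horizontal axis, with genes in rows by class. Filled circles are KO libraries, placed just above the open triangles of WT libraries, and orange marks the first set and blue the second. B2m lies at the right in all 6 libraries, and H2-M9 and H2-M1 are split between orange and blue.

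Of the 27 genes under a mean of 10, 13 had no read in any library. Among these were 9 class I genes (H2-M10.1 to H2-M10.6, H2-M10.5-ps1, H2-Q3 and H2-T3) and the class II genes H2-Ea-ps and H2-Eb2. The highest mean just below the limit was 5.81 for H2-M2, and the lowest just above it was 10.9 for H2-T24. H2-Aa, which encodes the alpha chain that pairs with H2-Ab1, had 10.3, 3.65, 11.1 and 0 normalized counts in KO1 to KO4, against 6.28 and 3.46 in WT1 and WT2. Ciita, the class II transactivator, had 1 or 2 reads in each of the KO libraries, against 1 read in WT1 and 0 in WT2.

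No gene of the set differed between the genotypes past an adjusted p of 0.05. With limma on log2(normalized count + 1) over all 15229 genes, 0 of the 28 were called, against 1 gene or 0.00657% of all genes tested, and 0 of the 28 had an unadjusted p under 0.05, against 0.939% of all genes. The called gene was RP23-357P12.1, named here after its values were seen, at 622 to 744 normalized counts in KO libraries and 11.5 to 15.7 in WT libraries. edgeR on the recovered reads called 0 of the 28, against 0.00657% of all genes, and 0 of the 28 had an unadjusted p under 0.05, against 0.998%. DESeq2 gave no p for H2-M1 and H2-M9. It called 0 of the other 26, against 0.0463% of all genes with a p, and 0 of the 26 had an unadjusted p under 0.05, against 1.44%. In 0 of the 28 were all 4 KO libraries above or all below both WT libraries, against 4.68% of all genes (2.36% above and 2.32% below). The 95% interval of the difference included 0 for all 28, with standard errors from 0.12 for Tap2 to 2.67 for H2-M1 on the log2 scale.

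The medians of the differences lay near that of all genes. On the class I side the median log2 difference was −0.02, with 11 genes above 0 and 12 below, and on the class II side −0.07, with 2 above and 3 below, beside 0.00 over all 15229 genes. With the set term the medians were 0.02 and −0.07. Each KO library was also set against the WT library of its own set. On the class I side those medians were −0.08 in KO1, −0.15 in KO2, 0.16 in KO3 and −0.23 in KO4, and on the class II side 0.53, −0.42, 0.00 and −0.24, where KO2 to KO4 share WT2. The direction in KO1 and the mean direction in KO2 to KO4 were the same in 14 of the 28 genes and opposite in the other 14.

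With the library set as a term in the fit, limma, edgeR and DESeq2 again called 0 of the 28. These fits called 0.00657%, 0.0131% and 0.328% of all genes. At an unadjusted p under 0.05, limma with the set term named 3 of the 28 (H2-M1, H2-Q10 and H2-DMa), or 10.7%, against 3.51% of all genes, and DESeq2 named H2-M1, H2-Q6 and H2-DMa against 3.66%. edgeR also named 3, against 3.51%. The lowest adjusted p of the 28 was 0.999 in limma, 1.00 in edgeR and 0.533 in DESeq2, so none of them passed.

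**Figure D2:**
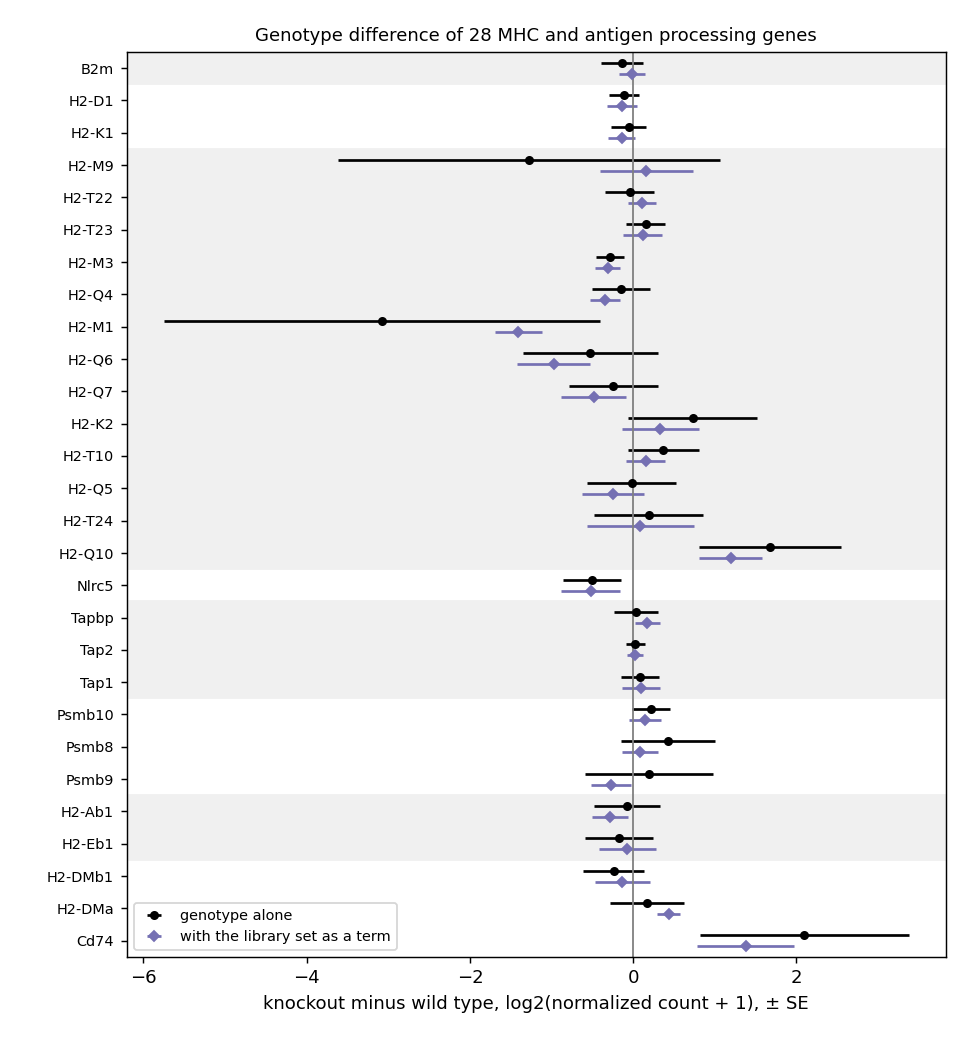
Difference between genotypes of the 28 genes, as knockout minus wild type on the log2(normalized count + 1) scale, with points at the limma estimate and bars of 1 standard error (4 KO and 2 WT libraries). Black circles are the fit on genotype alone and purple diamonds the fit with the library set as a term, in which B2m sits at −0.01 and Psmb9 at −0.27.

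Beta-2 microglobulin and the classical heavy chains overlapped between the genotype labels. B2m (chromosome 2, positions 122147686 to 122153083 of GRCm38, plus strand) had 19179, 15952, 15803 and 11697 normalized counts in KO1 to KO4, against 21085 and 13615 in WT1 and WT2. WT1 was the highest and KO4 the lowest library, and the groups overlapped. The log2 difference was −0.14 ± 0.26 (SE), with a 95% interval of −0.78 to 0.51, and −0.01 ± 0.16 with the set term. H2-K1 (chromosome 17, 33996017 to 34000347, minus strand) had 5277, 7196, 7045 and 5103 in KO1 to KO4, against 5439 and 7329 in WT1 and WT2. H2-D1 (chromosome 17, 35262730 to 35267499, plus strand) had 7008, 8883, 8601 and 6012 in KO1 to KO4, against 8076 and 8203 in WT1 and WT2. Both heavy chains were low in KO4, and H2-K1 was also low in KO1 and WT1, where H2-D1 in WT1 was not. Their log2 differences were −0.05 ± 0.21 for H2-K1 and −0.11 ± 0.19 for H2-D1, both with limma adjusted p of 1.00, and −0.14 ± 0.16 and −0.13 ± 0.18 with the set term.

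The promoters of class I genes are known for a set of short elements, an NF-kappa-B element and an interferon-stimulated response element upstream and the X2 and Y boxes that Nlrc5 and Ciita work through. RefSeq promoter sequences of build GRCm38.p6 were at hand for 20 of the 28 genes, and the 250 bases before each gene start were searched on both strands. Those of a classical class I gene, of the pair H2-M9 and H2-M1 and of a class II chain follow, because the pair split between the library sets and the classical gene did not. Each reads 5′ to 3′ along the gene's strand, and capitals mark exact matches to the kappa B core GGGATTC, the interferon-stimulated response core TTTCACT, the X2-like form TGATGAC or the Y box core CCAAT, or to their reverse complements. H2-K1 is at chr17:34000348-34000597 (minus strand), H2-M9 at chr17:36642664-36642913 (minus strand), H2-M1 at chr17:36672198-36672447 (minus strand) and H2-Eb1 at chr17:34305617-34305866 (plus strand).
H2-K1: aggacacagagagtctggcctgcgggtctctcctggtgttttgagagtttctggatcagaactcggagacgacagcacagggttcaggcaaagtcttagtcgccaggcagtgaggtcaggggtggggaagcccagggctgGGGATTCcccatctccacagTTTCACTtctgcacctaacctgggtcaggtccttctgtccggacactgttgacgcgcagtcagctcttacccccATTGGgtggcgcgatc
H2-M9: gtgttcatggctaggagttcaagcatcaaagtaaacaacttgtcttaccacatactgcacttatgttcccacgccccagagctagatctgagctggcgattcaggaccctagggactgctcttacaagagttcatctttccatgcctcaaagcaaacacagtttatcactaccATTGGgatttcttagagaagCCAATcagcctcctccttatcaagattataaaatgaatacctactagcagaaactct
H2-M1: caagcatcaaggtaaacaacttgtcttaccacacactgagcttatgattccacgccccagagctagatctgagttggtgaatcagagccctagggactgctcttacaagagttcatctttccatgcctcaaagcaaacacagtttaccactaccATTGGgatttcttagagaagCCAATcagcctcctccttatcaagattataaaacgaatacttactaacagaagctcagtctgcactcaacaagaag
H2-Eb1: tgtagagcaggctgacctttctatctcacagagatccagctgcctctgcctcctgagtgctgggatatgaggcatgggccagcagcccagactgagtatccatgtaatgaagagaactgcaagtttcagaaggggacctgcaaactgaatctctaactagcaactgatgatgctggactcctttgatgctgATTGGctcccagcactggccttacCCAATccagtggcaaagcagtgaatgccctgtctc

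GGGATTC, a core of the kappa B element, was in 5 of the 20 windows (H2-K1, H2-D1, H2-Q6, H2-Q7 and H2-T22), against 2.56% of 27025 RefSeq promoters. TTTCACT, a core of the interferon-stimulated response element, was in the same 5 and in H2-Q4, H2-Q10 and H2-M3, or 8 windows against 3.81%. TGATGAC, an X2-like form, was in 6 (H2-D1, H2-Q4, H2-Q6, H2-Q7, H2-T22 and H2-M3) against 2.77%, and CCAAT, the core of the Y box, in 16 against 34.5%. Only these exact letters were searched. A window without a match, such as those of the class II genes H2-Eb1 and H2-DMb1 for TGATGAC, may hold another form of the element. None of the 4 motifs overlapped another in these windows. H2-M9 and H2-M1 held CCAAT on both strands and none of the other 3 forms. Their windows were identical at 214 of 231 aligned bases, or 92.6%, and those of H2-D1 and H2-K1 at 87.4% of 190. Of the 8 genes with TTTCACT, H2-Q4, H2-Q6, H2-Q10 and H2-T22 also split between the library sets, and H2-K1, H2-D1, H2-Q7 and H2-M3 did not. Of the genes with CCAAT alone, B2m, Tapbp, Psmb9, H2-M9 and H2-M1 split, and Tap1, H2-T23, H2-DMb1 and H2-Eb1 did not. Psmb8, Psmb10 and H2-DMa, which held none of the 4 motifs, all split. Whether a motif goes with the split was not tested. A match describes the letters alone.

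**Figure D3:**
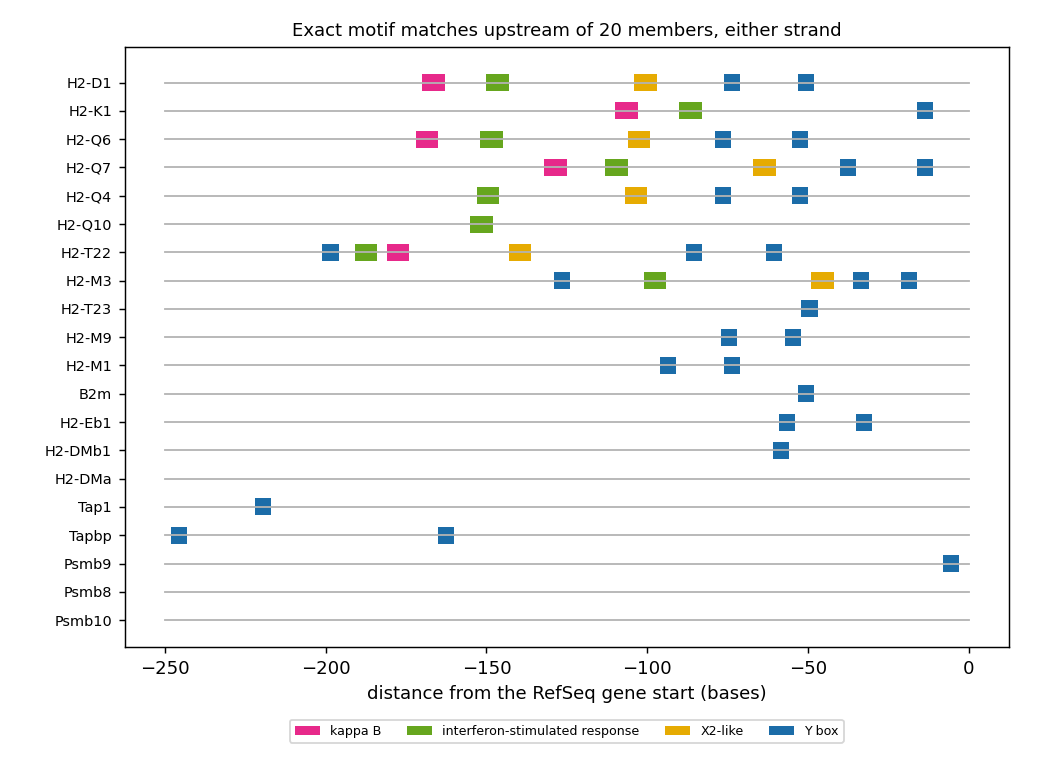
Exact motif matches on either strand in the 250 bases before the RefSeq start of 20 genes, with distance from the gene start in bases on the horizontal axis and 1 gene per row. Pink, green, yellow and blue blocks are the kappa B, interferon-stimulated response, X2-like and Y box forms. The pink and green blocks lie in classical class I, H2-Q, H2-T22 and H2-M3 rows, and the H2-M9 and H2-M1 rows hold blue blocks alone.

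H2-M9 and H2-M1 split the libraries by set and not by genotype label. Both encode class I-like heavy chains known from sensory neurons of the mouse vomeronasal organ. H2-M9 (chromosome 17, 36639285 to 36642666, minus strand) had 1106 normalized counts in KO1 and 36.5, 38.6 and 48.4 in KO2 to KO4, against 2887 in WT1 and 17.3 in WT2. H2-M1 (chromosome 17, 36670008 to 36672219, minus strand) had 217 in KO1 and 0.912, 0.857 and 1.01 in KO2 to KO4, against 500.4 in WT1 and 4.61 in WT2. In reads, H2-M1 had 211 in KO1 and 1 in each of KO2 to KO4, against 478 in WT1 and 4 in WT2. The lower library of the first set exceeded the highest of the second 22.8-fold for H2-M9. For H2-M1 the second set held 1 to 4 reads per library, too few for a fold. All 100-base stretches of both transcripts were found in no other annotated gene.

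Across all 15229 genes tested, the set difference of H2-M9 ranked 63rd by size, at −5.72 on the log2 scale (second minus first set). H2-M1 reached the mean of 10 through the first set alone, and with 1 read in KO2, KO3 and KO4, under the limit of 3 reads, its fitted differences depend on the pseudocount. Within 500 kb on either side the table held 42 genes, of which 9 others were tested, and their set differences ran from −0.55 to 0.39. Of the neighbours too low to be tested, Trim15 and Trim10, named after their values were seen, were also lower on average in the second set. Trim15 had 12.3, 5.47, 3.43 and 1.01 normalized counts in KO1 to KO4, against 14.7 and 1.15 in WT1 and WT2, a set difference of −2.11. Trim10 had 19.5, 2.74, 9.43 and 6.06 in KO1 to KO4, against 11.5 and 5.76 in WT1 and WT2, a set difference of −1.29. The 2 genes are 27341 bases apart. The ratio of H2-M9 to H2-M1 normalized counts was 5.10 in KO1, against 5.77 in WT1. In the second set it was 40.0 to 48.0 in KO2 to KO4, against 3.75 in WT2, where it rests on 1 to 4 reads of H2-M1. The H2-M10 genes, which are known from the same neurons, had no read in any library of either set.

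Between genotypes, H2-M9 was lower in KO1 than in WT1, with a log2 difference of −1.38, and higher in KO2, KO3 and KO4 than in WT2, with differences of 1.04, 1.11 and 1.44. The genotype difference was −1.28 ± 2.34 without the set term and 0.16 ± 0.57 with it. H2-M1 was lower in KO1 than in WT1, with a log2 difference of −1.20, while in the second set 1 read in each KO library stood against 4 reads in WT2, too few for a fold. Its fitted difference was −3.08 ± 2.67, and −1.41 ± 0.29 with the set term (unadjusted p = 0.00357, limma adjusted p = 0.999), and both rest in part on those reads.

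**Figure D4:**
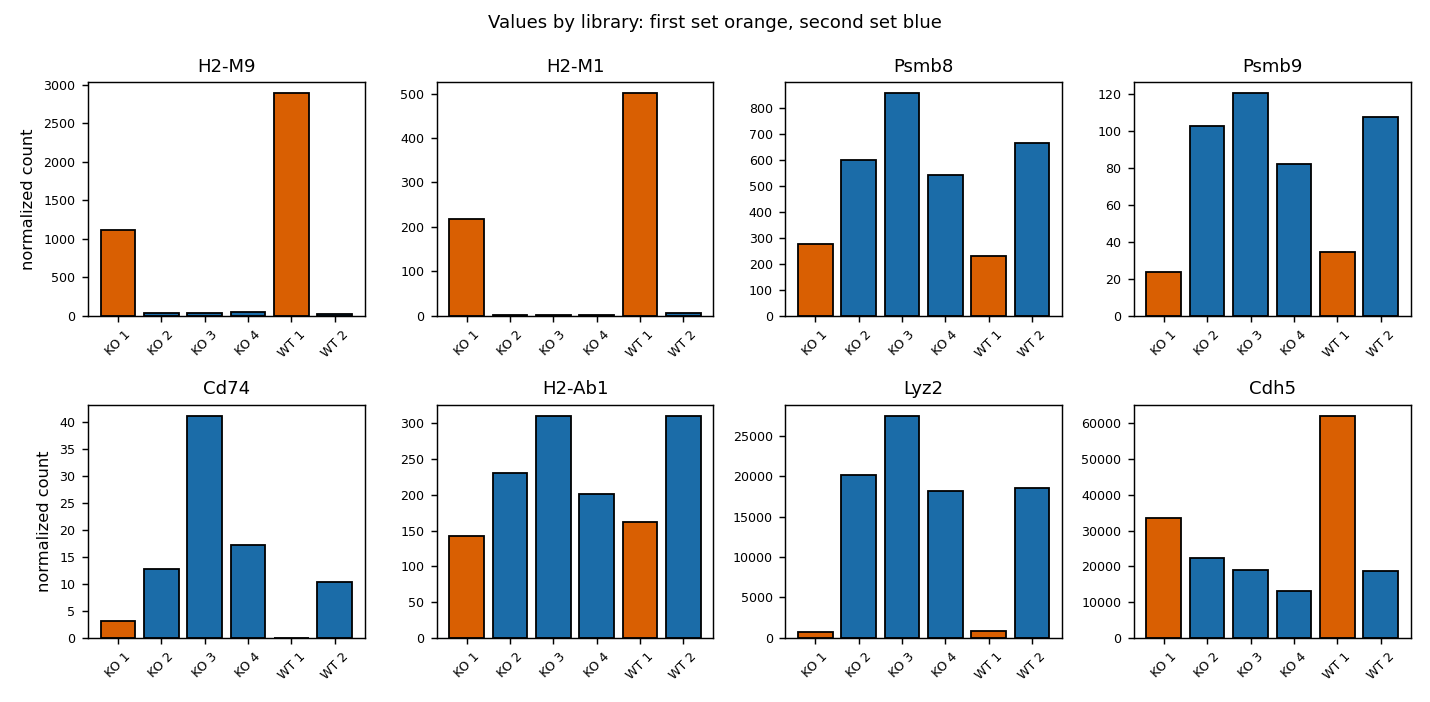
Normalized counts of 6 genes of the set and of the markers Lyz2 (macrophage) and Cdh5 (endothelial) in each library, KO1 to KO4 left of WT1 and WT2, with 1 bar per library. Orange bars are the first set and blue bars the second. H2-M9 and H2-M1 are tall in KO1 and WT1, and Psmb8, Psmb9, Cd74 and H2-Ab1 are taller in the second set.

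In the Q region of class I-like genes, H2-Q4, H2-Q5, H2-Q6 and H2-Q10 were higher in every library of the second set than in either of the first. H2-Q6 had 47.2, 178, 196 and 77.7 normalized counts in KO1 to KO4, against 72.2 and 327 in WT1 and WT2. H2-Q7, which encodes the Qa-2 antigen, had 90.4, 153, 164 and 85.8 in KO1 to KO4, against 78.5 and 249 in WT1 and WT2. H2-Q4 had 382, 594, 838 and 572 in KO1 to KO4, against 494 and 824 in WT1 and WT2. WT2 was the highest library for H2-Q6 and H2-Q7 and KO3 for H2-Q4, and the genotypes overlapped in all 3. H2-Q6 was lower in each KO library than in the WT library of its set, with log2 differences of −0.60, −0.87, −0.73 and −2.06 and a fitted difference of −0.53 ± 0.83, or −0.97 ± 0.44 with the set term. H2-Q10, known as a secreted class I molecule of liver, ran the other way on few reads. It had 5.14, 36.5, 20.6 and 20.2 normalized counts in KO1 to KO4, against 2.09 and 9.22 in WT1 and WT2. Its difference was 1.68 ± 0.87, and 1.20 ± 0.38 with the set term (unadjusted p = 0.0239, limma adjusted p = 0.999). Between 85.9% and 92.0% of the 100-base stretches of H2-Q4, H2-Q5, H2-Q6, H2-Q7 and H2-Q10 were found in no other annotated gene, so the counts of single Q genes are uncertain.

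After H2-M9, the other class I genes with the highest mean levels were H2-T22, H2-T23 and H2-M3, at 448, 367 and 270 normalized counts per kilobase. H2-T23, which encodes Qa-1, a ligand of the natural killer cell receptor NKG2A, had 1138, 931, 1400 and 917 normalized counts in KO1 to KO4, against 816 and 1158 in WT1 and WT2, and a log2 difference of 0.15 ± 0.24. H2-T22, a ligand of some gamma-delta T cells, had 2255, 1184, 1525 and 1165 in KO1 to KO4, against 1691 and 1363 in WT1 and WT2, and a difference of −0.04 ± 0.30, or 0.11 ± 0.17 with the set term. H2-T22 was highest in KO1 and WT1, the reverse of H2-Q4 and H2-Q6. The non-coding gene A930015D03Rik lies on the opposite strand of H2-T22 and shares 24.0% of its 100-base stretches. Reads of the pair cannot be told apart where counting ignored strand. H2-M3, which presents N-formylated peptides, had 352, 316, 369.5 and 409.8 in KO1 to KO4, against 403 and 477 in WT1 and WT2. The lowest was KO2 and the highest WT2, and the difference was −0.28 ± 0.18, with a 95% interval of −0.71 to 0.15. The low genes H2-K2, H2-Q5, H2-T10 and H2-T24 stayed between 4.56 and 99.5 normalized counts in every library, with differences of 0.73 ± 0.79, −0.02 ± 0.54, 0.37 ± 0.44 and 0.19 ± 0.67 (0.33 ± 0.47, −0.25 ± 0.38, 0.15 ± 0.24 and 0.09 ± 0.66 with the set term), and H2-K2 and H2-T10 were higher in the second set.

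The class I transactivator Nlrc5 (chromosome 8, 94434356 to 94527272, plus strand) was lower in each KO library than in the WT library of its set. It had 227, 245, 291 and 130.2 normalized counts in KO1 to KO4, against 271 and 341 in WT1 and WT2. KO4 stood apart at the low end, and KO3 lay between the WT libraries, so the groups overlapped. The log2 difference was −0.50 ± 0.35, with a 95% interval of −1.37 to 0.36 and a limma adjusted p of 1.00. H2-K1, H2-M3, H2-Q6 and, on few reads, H2-M1 were also lower in each KO library than in the WT library of its set. H2-DMa, Cd74 and H2-Q10 were higher in each. KO2 to KO4 share WT2 in these comparisons. The share of all genes with the same direction in all of them was not counted. H2-K1, H2-D1, B2m and Nlrc5 all had their lowest value in KO4. KO4 was the lowest of the 6 libraries in 7 of the 28 genes, against 17.7% of all genes. The summed endothelial, dendritic cell and alveolar type 2 markers were also lowest in KO4. Zbtb46 made 475 of the dendritic cell sum of 554 in KO4, and Abca3 made 2686 of the alveolar type 2 sum of 2847. Batf3 and Sftpb were not lowest in KO4, at 67.6 and 87.8 there, against 11.3 and 0 in KO1.

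The peptide transporter and tapasin did not separate by genotype label. Tap2 (chromosome 17, 34203527 to 34216321, plus strand) had 1574, 1489, 1653 and 1422 normalized counts in KO1 to KO4, against 1431 and 1580 in WT1 and WT2, and the smallest standard error of the 28 genes, with a log2 difference of 0.03 ± 0.12 and a 95% interval of −0.26 to 0.31. Tap1, the other chain of the transporter, had 823, 673, 1104 and 699 in KO1 to KO4, against 783 and 742 in WT1 and WT2, with KO3 the highest. Its difference was 0.09 ± 0.23. Tapbp had 3761, 2692, 2789 and 2032 in KO1 to KO4, against 3156 and 2281 in WT1 and WT2, was highest in KO1 and WT1, and differed by 0.04 ± 0.27, or 0.17 ± 0.15 with the set term.

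Immunoproteasome subunits replace constitutive ones in cells that meet interferon or belong to the blood lineages, and they were higher in the second set of libraries. Psmb8 had 277, 599, 857 and 541 normalized counts in KO1 to KO4, against 231 and 665 in WT1 and WT2. Psmb9 had 23.6, 102, 120.0 and 81.8 in KO1 to KO4, against 34.5 and 107 in WT1 and WT2. Psmb10 had 423, 592, 692 and 467 in KO1 to KO4, against 446 and 468 in WT1 and WT2. The mean of the second set was 2.62 times that of the first for Psmb8, 3.53 times for Psmb9 and 1.28 times for Psmb10. On average, 12 of the 14 tested macrophage markers were also higher in the second set. So were 12 of the 14 tested genes of the promoter factors and the interferon-gamma path, against 7867 of all 15229 genes. The part of either list in these levels was not tested. KO3 was highest for all 3 subunits, as it was for the summed macrophage markers. Genotype differences of Psmb8, Psmb9 and Psmb10 were 0.42 ± 0.58, 0.20 ± 0.79 and 0.22 ± 0.23 on the log2 scale. With the set term they were 0.09 ± 0.22, −0.27 ± 0.25 and 0.15 ± 0.20, so that of Psmb9 turned its sign.

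Set against the constitutive subunits they replace, the immunoproteasome genes were the minor form in every library. This held also without division by length, where Psmb8 came nearest to Psmb5 in KO3, at 857 against 1320 normalized counts. Lengths counted every base in any annotated exon of a gene, 3381 for Psmb8 and 899 for Psmb5, so the size of the ratios depends on the annotation. Per length, the ratio of Psmb8 to Psmb5 was 0.0587, 0.128, 0.173 and 0.110 in KO1 to KO4, against 0.0491 and 0.124 in WT1 and WT2. The ratio of Psmb9 to Psmb6 was 0.00289, 0.0139, 0.0150 and 0.00900 in KO1 to KO4, against 0.00398 and 0.0125 in WT1 and WT2. That of Psmb10 to Psmb7 was 0.184, 0.391, 0.410 and 0.259 in KO1 to KO4, against 0.195 and 0.263 in WT1 and WT2. The log2 differences of these ratios between genotypes were 0.49, 0.28 and 0.38, with two-sided exact permutation p = 0.467, 0.867 and 0.533 over the 15 regroupings, whose smallest possible p is 0.0667. The ratios also split by library set, which these regroupings take no account of. Against the WT library of its set, the log2 difference of the Psmb8 ratio was 0.26, 0.05, 0.48 and −0.17 in KO1 to KO4. That of the Psmb9 ratio was −0.46, 0.16, 0.27 and −0.47, and that of the Psmb10 ratio −0.09, 0.57, 0.64 and −0.02. Psmb5, Psmb6 and Psmb7 themselves had a median genotype difference of −0.09, and 0 of the 3 were called.

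Psmb9 and Tap1 start 226 bases apart on chromosome 17 (RefSeq starts 34187330 and 34187556) and are read in opposite directions. The lowest second-set library of Psmb9 was 2.37 times the highest of the first set, while for Tap1 the same ratio was 0.817, with the sets overlapping. Exons of the pair overlap on opposite strands over 212 annotated bases, and 94.7% of the 100-base stretches of Psmb9 were found in no other gene.

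Class II transcripts were present at low levels, and unevenly. H2-Ab1, the beta chain of the A molecule, had 143, 231, 310.4 and 201 normalized counts in KO1 to KO4, against 162 and 309.9 in WT1 and WT2. Its partner H2-Aa stayed at or below 11.1 in every library. H2-Eb1, the beta chain of the E molecule, had 33.9, 14.6, 22.3 and 22.2 in KO1 to KO4, against 24.1 and 26.5 in WT1 and WT2. The log2 differences were −0.07 ± 0.40 for H2-Ab1 and −0.17 ± 0.41 for H2-Eb1, and −0.28 ± 0.22 and −0.07 ± 0.35 with the set term.

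The invariant chain Cd74, which is abundant in cells that present antigen to CD4 T cells, was near the limit of counting. It had 3.08, 12.8, 41.2 and 17.2 normalized counts in KO1 to KO4, against 0 and 10.4 in WT1 and WT2, or 3, 14, 48 and 17 reads against 0 and 9 reads. KO3, which had the highest macrophage marker sum, was the highest library. The difference was 2.09 ± 1.28, and 1.38 ± 0.59 with the set term (unadjusted p = 0.0635). Interferon-gamma itself (Ifng) had no read in any library, and Ifnb1 had 1 read in KO3 alone.

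The DM genes encode the protein that exchanges peptides on class II. H2-DMa had 295, 132, 142 and 133 normalized counts in KO1 to KO4, against 204 and 105 in WT1 and WT2. It was highest in KO1 and WT1, and within each set the KO libraries were above the WT library, by log2 differences of 0.53, 0.33, 0.44 and 0.34. The fitted difference was 0.17 ± 0.45, and 0.43 ± 0.14 with the set term (unadjusted p = 0.0265, limma adjusted p = 0.999). H2-DMb1 had 364, 152, 207 and 199 in KO1 to KO4, against 227 and 294 in WT1 and WT2, with a difference of −0.24 ± 0.37 (−0.13 ± 0.33 with the set term), and lay above WT1 in KO1 and below WT2 in the other 3. Exons of H2-DMa overlap those of Brd2 on the opposite strand over 360 annotated bases. H2-DMb1 shares 11.3% of its 100-base stretches with H2-DMb2, which had at most 2 reads in any library.

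Set against set, all second-set libraries were above all first-set libraries in 11 of the 28 genes, against 32.7% of all genes (Psmb8, Psmb9, Psmb10, H2-K2, H2-Q4, H2-Q5, H2-Q6, H2-Q10, H2-T10, H2-Ab1 and Cd74) and below them in 6, against 30.7% (B2m, H2-M1, H2-M9, H2-T22, Tapbp and H2-DMa). Together these are 60.7% of the 28, a share near the 63.4% of all genes tested. Cd74, H2-Q10 and H2-Q5 averaged 1.54, 3.61 and 9.85 normalized counts in the first set, and H2-M1 averaged 1.85 in the second. These genes reached the mean of 10 through the set where they were high.

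Within the second set, KO4 was the lowest of the 4 libraries in 17 of the 28 genes, against 31.2% of all genes. On the class I side this held for 16 of 23, or 69.6%. KO3 was the highest in 15 of the 28, against 16.1% of all genes. Among these 4 libraries KO4 also had the lowest endothelial, macrophage, dendritic cell and alveolar type 2 marker sums, but not the lowest fibroblast or mesothelial sum. KO3 had the highest macrophage marker sum. The part of these cells in the counts was not tested.

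None of the tested genes of the wider pathway passed limma either. Of 8 further genes of class I peptide loading and the proteasome, 4 were above 0 and 4 below, with a median log2 difference of −0.03 and 0 called. The chaperones Calr and Pdia3, members of the peptide loading complex, were higher in KO1 and WT1, with set differences of −0.92 and −0.79 on the log2 scale (second minus first set), beside −0.94 for H2-DMa. Calr had 53388, 29024, 30398 and 26808 normalized counts in KO1 to KO4, against 53236 and 26941 in WT1 and WT2, and Pdia3 had 50725, 28158, 28983 and 30001 in KO1 to KO4, against 49928 and 29013 in WT1 and WT2. The 9 genes of class II endosomal processing had a median of 0.10, the 14 tested genes of the promoter factors and the interferon-gamma path 0.12 and the 5 tested co-stimulatory ligands 0.34, with 0 called in each. Among those 9 endosomal genes, 4 were higher on average in the second set and 5 were lower. Ctss, the endosomal protease of macrophages and other presenting cells that trims the invariant chain, is not among their 3 most abundant. It had their largest set difference, 6.89 on the log2 scale. Ctss had 14.4, 2015, 2895 and 1653 in KO1 to KO4, against 18.8 and 1907 in WT1 and WT2. The 12 endothelial markers all lay below 0, with a median of −0.74, and of −0.45 with the set term. Against the WT library of its set their median was −0.66 in KO1, 0.02 in KO2, −0.22 in KO3 and −0.71 in KO4. Limma called 0 of the 12, while DESeq2 with the set term called Vwf.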

How the data were processed

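The submitters' processing notes list Trimmomatic 0.36, STAR 2.6.0c, Subread 1.6.1 with featureCounts and the build GRCm38.p6, while the series design text names other versions, HTSeq and DESeq2. The authors deposited 1 table of normalized counts for 6 libraries, a signal that equals whole read counts divided by a size factor. All values, 100% of them, were whole multiples of 1 read within 1e-06, so reads were recovered. The single-end reads were 100 nt long. The floors of 3 reads cover counting error only, while the 95% intervals rest on the scatter between libraries.

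Genes with a mean of at least 10 were tested on log2(normalized count + 1) by limma 3.58.1 under R 4.3.3 (eBayes with its trend option, genotype alone, Benjamini-Hochberg over 15229 genes, threshold 0.05). On that scale the change of low genes is understated. edgeR 4.0.16 (quasi-likelihood test) and DESeq2 1.42.0 ran on the recovered reads. Library sets came from average-linkage clustering of correlations over genes outside the families. GENCODE M21 on GRCm38 gave positions, exon lengths and the share of 100-base stretches found in no other gene, and RefSeq gave promoters. An exon length counts every base in any annotated exon of the gene, so levels per kilobase and their order depend on the annotated transcripts. Only the limma fit on genotype alone was tried on simulated data, which held no library sets. The edgeR and DESeq2 fits and the fits with the set term were not tried in that way.

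Genes and lists were chosen with earlier results of these data known. All genes of the set with a mean of at least 10 are named. Of the other lists the called genes, the 3 most abundant and fixed defining markers may be. Ctss, Itgax, Ifng, Ifnb1, Cd3e, Cd8a and Xcr1 are named outside that rule.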

Additional observations from a re-analysis of the deposited data

Results flagged for a closer look

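The 4 KO libraries were examined for 55 values, those of genes and of the proteasome ratios. In 5 of them, 1 library's gap to the nearest other, divided by the whole range, was above Dixon's 95% critical value. Chance gives about 1 in 20 where the libraries are alike. All 5 were KO1, the sole KO library of the first set, so that rate does not apply here. H2-M1 had 217 normalized counts in KO1, against 0.857 to 1.01 in the other KO libraries. H2-M9 had 1106, against 36.5 to 48.4, and H2-DMa had 295, against 132 to 142. Calr had 53388, against 26808 to 30398, and Pdia3 had 50725, against 28158 to 30001. In WT1, the other library of the first set, the 5 genes were also higher than in WT2.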

How the results depend on the processing

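None of the 28 genes was called under any of 20 alternatives (pseudocounts, filters, scalings, tests, the library set, the second set alone and each library left out), although DESeq2 without the set term gave no p for H2-M1 and H2-M9. The sign of the difference changed in 54 of 554 gene and alternative pairs, spread over 20 genes, and in none of those run for Cd74, H2-D1, H2-DMb1, H2-K2, H2-M3, H2-Q10, Nlrc5 and Psmb10. The class medians moved by less than 1 SD of the KO libraries (0.30 on the class I side and 0.34 on the class II side). The count of called genes over the whole table, 1 in the analysis reported, was 2 with a pseudocount of 5, 7 with DESeq2, 2 with edgeR and the set term, 50 with DESeq2 and the set term, 0 in the second set alone, and 0 to 2 with 1 library left out (2 without KO1, 0 without KO2, KO3 or KO4). The cause was not tested. Where 1 WT library remained, it was assumed to vary like the KO libraries. With the title number as a replicate block the count was 0, and the class medians were −0.04 and −0.13. The numbers KO and WT libraries share coincide with the library sets, and nothing in the labels says that they pair animals: the deviations of KO1 and WT1 correlated at 0.841 and those of KO2 and WT2 at 0.562. Other scalings moved the median of all genes to at most 0.02. With 2 WT libraries, precision is limited by their number, and H2-M1, Cd74, H2-Q10 and H2-T24 rest on few reads.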
